A study of Homo sapiens with 24 samples.

Results

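Cyclins are the regulatory subunits that switch cyclin-dependent kinases (CDKs) on and that give the cell cycle its order. The 9 cyclin genes followed here were CCND1, CCND2, CCND3, CCNE1, CCNE2, CCNA2, CCNB1, CCNB2 and CCNF, taken by symbol from expression tables of 35587 gene symbols. All 9 were found in both tables. They were followed in OCI-AML2 and MOLM14, established human cell lines of acute myeloid leukaemia (AML), after 24 h with ARM165, AZ2 or the vehicle DMSO. The series title concerns the signalling of PI3K gamma and AKT in AML and a degrader molecule. The labels do not say which compound that is, and they give no doses, so comparisons of ARM165 with AZ2 are not known to be dose-matched. Each of the 6 groups (OCI-AML2 with ARM165, AZ2 or DMSO, and MOLM14 with ARM165, AZ2 or DMSO) held 4 libraries. Nothing in the labels says whether the 4 were separate cultures, so each p-value reflects only library-to-library spread, possibly of technical origin.

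The D-type cyclins (CCND1, CCND2, CCND3) respond to growth signals and, with CDK4 or CDK6, phosphorylate the retinoblastoma protein early in G1. Cyclins E1 and E2 bind CDK2 and drive the entry into S phase, cyclin A2 acts with CDK2 and CDK1 in S phase and G2, and cyclins B1 and B2 act with CDK1 in mitosis. Cyclin F, the product of CCNF, binds no CDK as an activator and is instead the substrate-recognition subunit of an SCF ubiquitin ligase. Apart from the D-type genes, most of these mRNAs are made in waves, through E2F factors at the start of S phase and through the MuvB, B-MYB and FOXM1 proteins in G2, so that their level in a population follows how its cells are spread over the cycle.

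Poly(A) RNA was sequenced, an estimated 35.4 to 59.0 M reads per library were assigned to gene symbols, and each library detected 18889 to 19699 symbols. The unit throughout is the normalized estimated read per gene symbol, deposited in a separate table for each line with a scaling that is not stated, so no level was compared between lines or between genes. Changes are therefore relative to the whole transcriptome of a line, and fewer cells with a transcript and less of it per cell cannot be told apart. Of 10 genes that mark myeloid blasts, 10 in OCI-AML2 and 9 in MOLM14 had a median of at least 10 normalized reads, all but CD14 in MOLM14. Their summed level was 54803 to 56275 with ARM165, 96724 to 103239 with AZ2 and 97058 to 105059 with DMSO in OCI-AML2, and 48565 to 56307, 80108 to 84575 and 81525 to 85812 in the same groups of MOLM14. Single genes of the list went both ways with ARM165 against DMSO, with 2 higher and 5 lower of 10 tested in OCI-AML2 and 3 higher and 5 lower of 9 tested in MOLM14. Of the defining markers of other blood cells, CD3E, CD2, MS4A1, HBB and HBA1 had a median of 0 in both lines. NKG7 in both lines and PAX5 in MOLM14 were expressed, with medians of 708 for NKG7 in OCI-AML2, and of 489 for NKG7 and 480 for PAX5 in MOLM14. Summed over the lists, the 4 T and NK cell genes stood at 482 to 660 with ARM165, 651 to 876 with AZ2 and 751 to 903 with DMSO in OCI-AML2, and at 359 to 457, 499 to 589 and 488 to 547 in MOLM14. The 4 B cell genes stood at 17.5 to 40.7, 35.2 to 57.0 and 48.1 to 70.4 in OCI-AML2, and at 312 to 393, 470 to 710 and 551 to 668 in MOLM14, in the same order of groups. The 4 erythroid genes reached at most 50.9 and the 5 epithelial and fibroblast genes at most 82.3 in any library. Mitochondrially encoded mRNAs took 5.02 to 5.91% of the reads with ARM165, 7.75 to 8.63% with AZ2 and 7.20 to 8.11% with DMSO in OCI-AML2, and 4.49 to 5.08%, 5.39 to 6.32% and 5.07 to 5.45% in MOLM14. Of the 13 such mRNAs, ARM165 lowered 12 and raised none in OCI-AML2, and lowered 11 and raised 1 in MOLM14, against DMSO. In MOLM14 these counts depended on the scaling, with 5 lower and 2 higher after quantile normalization and 8 lower and 2 higher when libraries were rescaled to equal totals. Beside the counts of both the myeloid and the mitochondrial genes, 31.6% of all genes were lower and 34.2% higher in OCI-AML2, and 34% and 35.5% in MOLM14. These differences move with ARM165, as the cyclins do, and their part in the cyclin results was not tested.

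The start regions of the cyclin genes are shown because most of these mRNAs fell together under ARM165. Windows for 6 of the 9 genes, at 8 start sites, were read from a table of RefSeq start sites on GRCh38.p14, and those of CCND1, CCND2 and CCNE2 were not analysed here. The 250 bases before each start were searched on both strands. The motifs were the cell cycle genes homology region (CHR, with the letters TTTGAA, the letters TTCGAA or the letters CTTGAA), to which MuvB complexes bind, the CCAAT box (CCAAT), to which NF-Y binds, and the E2F site (with the letters TTTCCCGC, the letters TTTCGCGC, the letters TTTGCCGC or the letters TTTGGCGC). In the lines that follow, written 5′ to 3′ along the gene, capitals mark a CHR or a CCAAT box, and ATTGG is a CCAAT box on the other strand. The windows are chr4:121823884-121824133 (minus strand), chr5:69166900-69167149, chr15:59104896-59105145, chr16:2429197-2429446 and chr19:29811741-29811990 (plus strand).
CCNA2: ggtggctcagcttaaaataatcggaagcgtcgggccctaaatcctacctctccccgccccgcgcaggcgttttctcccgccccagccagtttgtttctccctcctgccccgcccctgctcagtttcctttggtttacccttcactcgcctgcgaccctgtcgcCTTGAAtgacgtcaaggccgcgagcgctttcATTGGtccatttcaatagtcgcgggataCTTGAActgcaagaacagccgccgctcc
CCNB1: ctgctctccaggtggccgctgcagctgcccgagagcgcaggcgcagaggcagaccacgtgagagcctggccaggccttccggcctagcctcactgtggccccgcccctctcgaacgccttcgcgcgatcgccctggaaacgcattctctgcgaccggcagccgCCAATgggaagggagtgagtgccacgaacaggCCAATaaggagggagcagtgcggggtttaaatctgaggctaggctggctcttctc
CCNB2: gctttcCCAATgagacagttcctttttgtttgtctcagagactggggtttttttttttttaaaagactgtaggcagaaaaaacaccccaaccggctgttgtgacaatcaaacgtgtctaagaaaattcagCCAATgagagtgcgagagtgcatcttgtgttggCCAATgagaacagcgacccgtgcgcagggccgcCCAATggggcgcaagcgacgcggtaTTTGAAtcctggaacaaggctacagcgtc
CCNF: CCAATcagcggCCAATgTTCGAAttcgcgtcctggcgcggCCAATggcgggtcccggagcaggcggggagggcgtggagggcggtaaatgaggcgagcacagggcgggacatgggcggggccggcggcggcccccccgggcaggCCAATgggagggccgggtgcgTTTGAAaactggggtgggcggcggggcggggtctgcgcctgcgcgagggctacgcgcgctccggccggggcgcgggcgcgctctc
CCNE1: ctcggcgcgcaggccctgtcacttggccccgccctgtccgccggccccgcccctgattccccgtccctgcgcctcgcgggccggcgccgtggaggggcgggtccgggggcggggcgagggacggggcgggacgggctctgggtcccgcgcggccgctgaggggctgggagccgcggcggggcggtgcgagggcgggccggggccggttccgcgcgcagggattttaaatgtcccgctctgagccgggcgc
CCNA2 held 2 CHR motifs, 87 and 28 bases before its start, and 1 CCAAT box at 56. CCNB1 held 2 CCAAT boxes, at 87 and 55, and no CHR. CCNB2 held a CHR at 29 and 4 CCAAT boxes, at 244, 120, 87 and 54. CCNF held CHR motifs at 233 and 85 and 4 CCAAT boxes, at 250, 239, 210 and 106. The window of CCNE1 held none of the letters searched. The 3 start sites of CCND3 held 0, 1 and 1 CCAAT box and no CHR. None of the 8 windows held one of these E2F letters, and no match overlapped another motif. Of 35116 RefSeq windows of this length, 21.9% held a CHR, 32.0% a CCAAT box, 7.71% both, 2.93% at least 3 CCAAT boxes and 2.79% an E2F site. A match describes the letters only and is not evidence that a factor binds there. Nor does a missing match show that a site is lacking, since other forms of a motif and bases outside the window were not searched.

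With ARM165, 7 of the 8 cyclins tested in OCI-AML2 fell against DMSO and none rose. In that comparison 31.6% of the 15377 genes tested were called lower and 34.2% higher, 65.8% in all (limma, Benjamini-Hochberg adjusted p under 0.05 over all genes tested). The ARM165 and DMSO libraries did not overlap for the same 7 cyclins, all lower, as for 28.8% of genes lower and 31.7% higher. The median change of the 8 cyclins was -1.34 on the log2 scale, beside 0.034 for all genes. The falls were deepest in both E-type cyclins and in CCNF, while CCND1 did not pass the test and CCND2 was too low to be tested. Changes are log2 differences ± SE of log2(value + 1), a scale on which the change of a scarce transcript comes out too small, and the adjusted p-values are from limma.

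Among the D-type cyclins of OCI-AML2, CCND3, which pairs with CDK6 in many blood cells, stood at 2300.5, 2520.1, 2377 and 2376 normalized reads in the 4 ARM165 libraries, at 5691, 5792, 5935 and 6346 with AZ2 and at 5999.9, 6095, 6050.4 and 5702 with DMSO. Every ARM165 library was below every other library, and CCND3 fell to 40.2% of DMSO (-1.32 ± 0.051, adjusted p = 4.62e-12 in limma). CCND1 was at 84.9, 82.0, 98.0 and 97.6 with ARM165, 85.1, 108, 118 and 113 with AZ2 and 118, 87.3, 98.3 and 102 with DMSO. These ranges overlapped, and the change of CCND1 did not pass the test (-0.16 ± 0.17, 95% interval -0.52 to 0.20, limma adjusted p = 0.439). CCND1 overlaps LTO1 on the opposite strand, and LTO1 rose with ARM165 to 1367 ± 81.0, against 712 ± 79.4 with DMSO (SD, n = 4; change 0.94 ± 0.082, adjusted p = 5.76e-08 in limma). The library kit keeps the strand, but the strand setting of the quantification was not given, so how reads were divided between CCND1 and LTO1 is not known. The same doubt holds for CCNE2, which overlaps INTS8 and NDUFAF6 on the opposite strand, and for CCNA2, which overlaps EXOSC9 there. With ARM165 and DMSO the means in OCI-AML2 were 2154 and 2119 for INTS8, 1925 and 2219 for NDUFAF6, and 2917 and 3355 for EXOSC9. CCND2 was listed at low values in OCI-AML2, at 1.69, 1.54, 0.458 and 0.874 with ARM165, 1.18, 0.0429, 0.836 and 0.264 with AZ2 and 1.02, 0.286, 9.75 and 2.60 with DMSO, and it did not pass the filter on low values. AC008012.1, a gene that overlaps CCND2 on the same strand, was at 470 ± 74.2 with ARM165, 486 ± 76.5 with AZ2 and 464 ± 107 with DMSO (SD, n = 4). How reads were divided between CCND2 and AC008012.1 is not known, so the low values do not show that CCND2 is absent.

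The E-type cyclins showed the lowest remaining shares in OCI-AML2. CCNE1 was at 628, 634, 684 and 771 with ARM165, at 2128, 2414, 2313 and 2264 with AZ2 and at 2159, 2248, 2325 and 2320.2 with DMSO. The ARM165 libraries lay apart from the rest, and the mean was 679 ± 66.2 with ARM165 and 2263 ± 77.9 with DMSO (SD, n = 4 each), or 30.0% of DMSO (-1.74 ± 0.071, limma adjusted p = 9.39e-12). CCNE2 was at 215, 139, 168 and 237 with ARM165, 757, 679, 659 and 617 with AZ2 and 759, 766, 603 and 608 with DMSO. It fell to 27.5% of DMSO without overlap (-1.87 ± 0.15, limma adjusted p = 2.37e-08), with the widest standard error among the 7 cyclins that fell.

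Cyclin A2, the S phase and G2 cyclin, was at 4484, 4440.3, 4536 and 5496 normalized reads with ARM165, 12463, 12589.6, 11253 and 12222 with AZ2 and 12509, 13377, 11459 and 11610.2 with DMSO in OCI-AML2. The fourth ARM165 library was the highest of its group and still below every AZ2 and DMSO library, and CCNA2 fell to 38.7% of DMSO (-1.37 ± 0.072, limma adjusted p = 1.57e-10). The mitotic cyclin CCNB1 was at 2515, 2483, 2310.1 and 2523 with ARM165, 4879, 5202, 5418 and 5399.9 with AZ2 and 5535, 5938, 5402 and 5132 with DMSO. Its fall to 44.7% of DMSO (-1.16 ± 0.057, limma adjusted p = 6.94e-11) left no overlap between the ARM165 libraries and the others. CCNB2 was at 2552, 2475, 2239 and 2451 with ARM165, 4972, 5247, 4972 and 5410.1 with AZ2 and 4807, 5647, 5111 and 4711 with DMSO. It kept 48.0% of DMSO (-1.06 ± 0.064, limma adjusted p = 7.32e-10), the largest share among the 7 cyclins that fell in this line. CCNF was at 692, 773, 613 and 686 with ARM165, 1830.1, 1857, 2018 and 2060.1 with AZ2 and 2073, 1753, 1993 and 1871 with DMSO, and it fell to 35.9% of DMSO with no overlap (-1.48 ± 0.079, limma adjusted p = 1.89e-10).

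**Figure D1:**
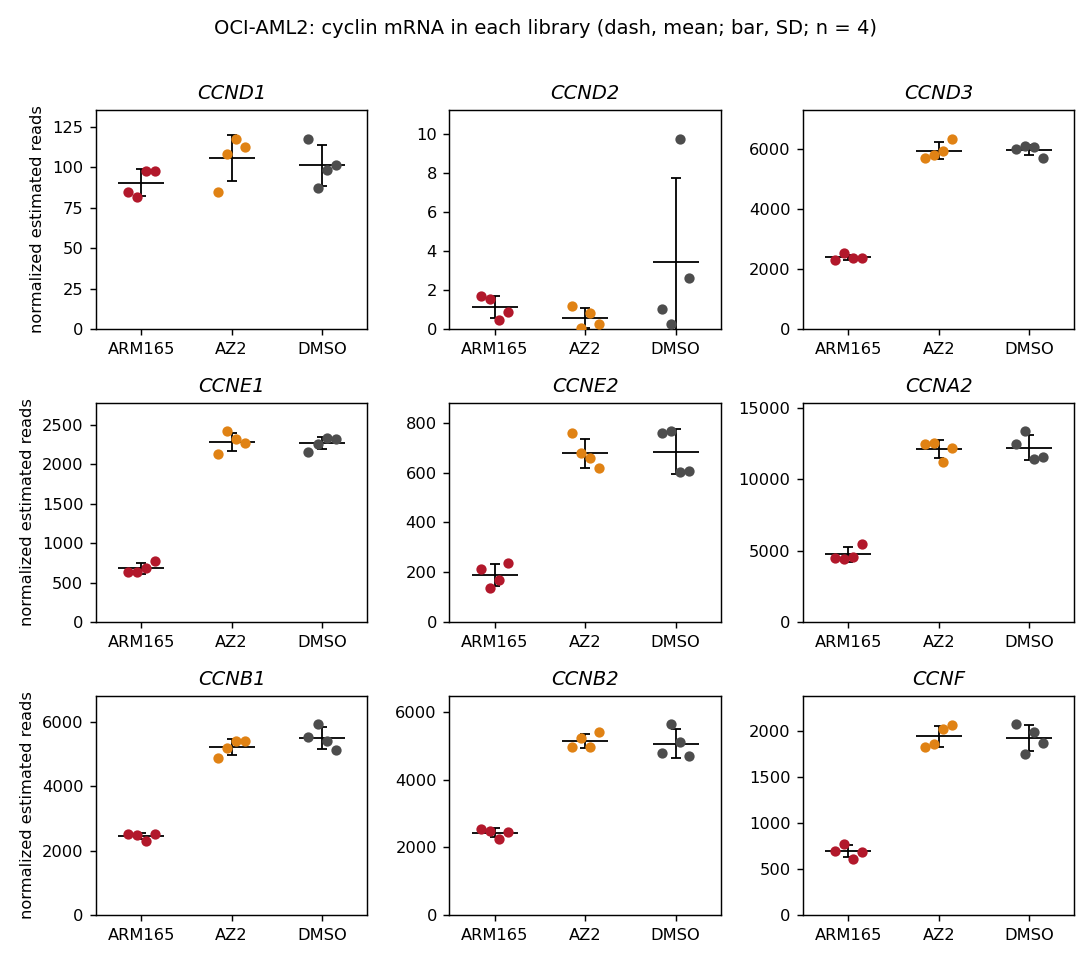
Normalized estimated reads of each cyclin (vertical axes, starting at 0) in the 12 OCI-AML2 libraries, in the order ARM165, AZ2 and DMSO; points are libraries, dashes the mean and bars the SD of 4. In 7 panels the ARM165 points lie below all others, while those of CCND1 overlap the other groups and CCND2 stays under 10 reads.

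In MOLM14 all 9 cyclins passed the filter, and ARM165 lowered 8 of them and raised CCND2 against DMSO. Of the 15288 genes tested there, 34% were called lower and 35.5% higher, 69.5% in all. None of the 9 had overlapping ARM165 and DMSO libraries, with 8 lower and 1 higher, as for 30.7% and 33.1% of genes in those directions. The median change of the 9 was -1.38, beside 0.031 for all genes. When the libraries were rescaled to equal totals, the median of all genes moved by 0.19, and the calls over all genes were 6676 higher and 4142 lower in place of 5427 and 5196. The directions and calls of the 9 cyclins held under that scaling and under quantile normalization.

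The 3 D-type cyclins of MOLM14 did not move alike. CCND1 was at 52.1, 65.4, 66.6 and 67.0 normalized reads with ARM165, 124, 140.4, 97.1 and 117 with AZ2 and 130.4, 135, 112 and 123 with DMSO. All ARM165 libraries were below all others, and CCND1 fell to 50.5% of DMSO (-0.99 ± 0.16, limma adjusted p = 6.51e-05). Its neighbour LTO1 rose here too, to 920 ± 75.6 with ARM165, against 578 ± 56.8 with DMSO (SD, n = 4; change 0.67 ± 0.089, limma adjusted p = 5.77e-06). CCND2 was at 317, 323, 376 and 321 with ARM165, 242, 235, 239 and 257 with AZ2 and 250.4, 252, 248 and 229 with DMSO. The lowest ARM165 library exceeded the highest of the others, and CCND2 rose to 136% of DMSO (0.45 ± 0.094, limma adjusted p = 0.000586). The size of this rise depended on the scaling, with 0.30 ± 0.090 after quantile normalization and 0.64 ± 0.094 with equal totals. AC008012.1, a protein-coding gene on the same strand that shares ground with CCND2 at 4 of its 12 exons in GENCODE release 29, was at 1273 ± 40.2 with ARM165 and 1161 ± 100 with DMSO (SD, n = 4; change 0.14 ± 0.069, limma adjusted p = 0.087). Against AZ2, at 1064 ± 61.5, AC008012.1 was higher with ARM165 by 0.26 ± 0.069 (limma adjusted p = 0.00328), and reads may be split between both genes. CCND3 was at 2506, 2268, 2698 and 2677 with ARM165, 3312, 3333, 3467 and 3397 with AZ2 and 3426, 3225, 3339 and 3355 with DMSO. It fell, without overlap, to 75.9% of DMSO (-0.40 ± 0.053, limma adjusted p = 6.62e-06), and with equal totals the fall was -0.21 ± 0.043 (adjusted p = 0.000521).

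CCNE1 had the deepest fall of the 9 cyclins in MOLM14. It was at 245, 213, 302 and 320.2 with ARM165, 1284, 1252, 1287 and 1294 with AZ2 and 1314, 1232, 1365 and 1165 with DMSO. The 4 ARM165 libraries lay far below the others, and CCNE1 kept 21.1% of DMSO (-2.24 ± 0.11, limma adjusted p = 4.54e-11). CCNE2 was at 384, 344, 394 and 466 with ARM165, 1335, 1295, 1319.8 and 1189 with AZ2 and 1184, 1223, 1313 and 1339.6 with DMSO. It fell to 31.3% of DMSO (-1.68 ± 0.085, limma adjusted p = 8.77e-11), again with the groups apart.

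Of the later cyclins in MOLM14, CCNA2 was at 4570.3, 4545, 4660.0 and 5383 with ARM165, 13508, 12232, 12232 and 12408 with AZ2 and 12067, 12563, 12329.7 and 12889 with DMSO. Its ARM165 libraries were all below the others, at 38.4% of DMSO (-1.38 ± 0.054, limma adjusted p = 6.03e-12). CCNB1 was at 1818, 1794, 2072 and 2099 with ARM165, 5561, 5111, 5604 and 4892 with AZ2 and 5309, 5144, 5168 and 5129 with DMSO. It fell to 37.4% of DMSO with no overlap (-1.42 ± 0.060, limma adjusted p = 1.27e-11). CCNB2, its close relative, was at 2523, 2263, 2341 and 2672 with ARM165, 4658, 4329.9, 4482 and 4606 with AZ2 and 4328, 4252, 4601 and 4575 with DMSO. The groups were apart here as well, but CCNB2 kept 55.1% of DMSO (-0.86 ± 0.054, limma adjusted p = 1.08e-09), more than the E-type, A-type and other B-type cyclins. CCNF was at 660.3, 607, 740.3 and 643 with ARM165, 2080.3, 1950.1, 2048 and 1956 with AZ2 and 1964, 1945, 2055 and 2068 with DMSO. It fell to 33.0% of DMSO (-1.60 ± 0.061, limma adjusted p = 4.33e-12) with all 4 ARM165 libraries below the rest.

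**Figure D2:**
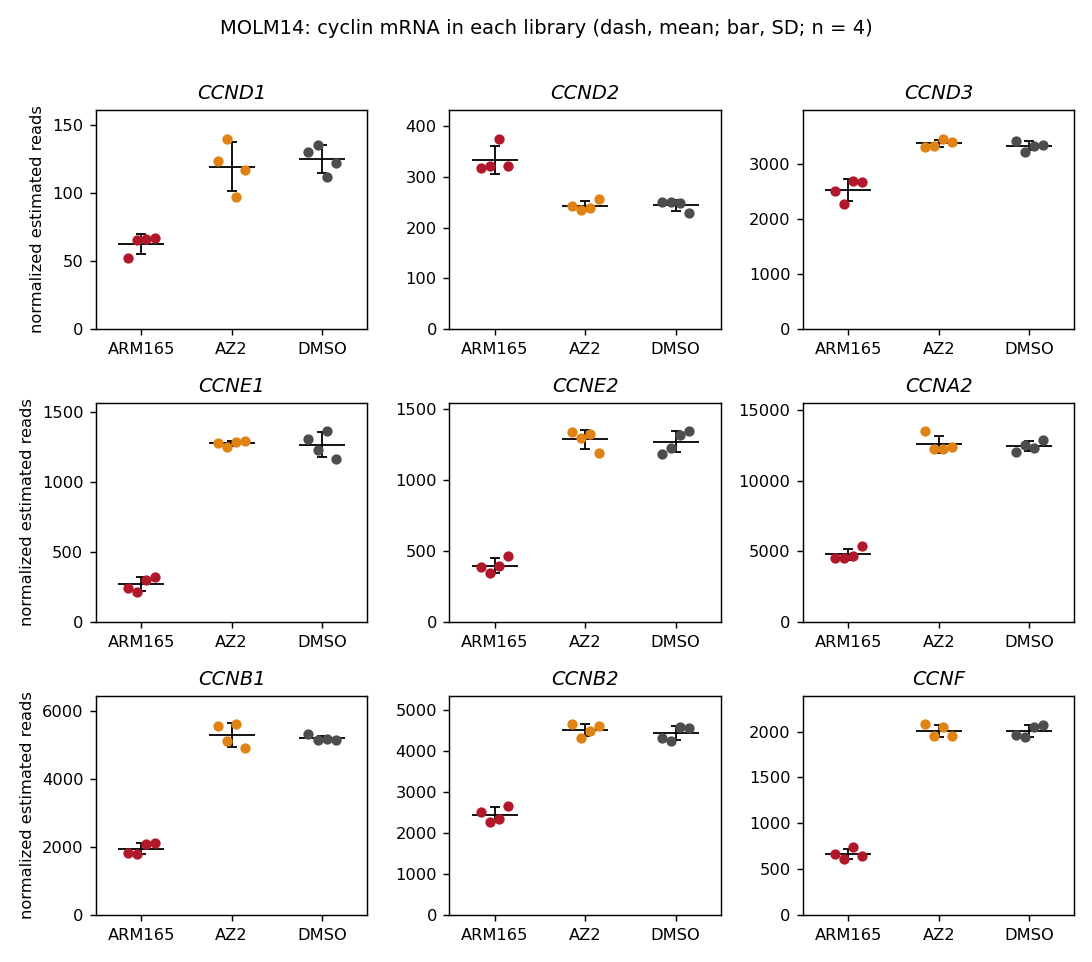
Normalized estimated reads of each cyclin (vertical axes, starting at 0) in the 12 MOLM14 libraries, in the order ARM165, AZ2 and DMSO; points are libraries, dashes the mean and bars the SD of 4. In 8 panels the ARM165 points lie below all others, and in the CCND2 panel they lie above.

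No cyclin changed with AZ2 past the threshold in either line. In OCI-AML2, 0 of the 8 cyclins tested were called against DMSO, and 0.111% of the 15377 genes tested were called. An unadjusted p under 0.05 was found for 0 cyclins and 4.77% of genes. The changes ran from -0.074 for CCNB1 to 0.061 for CCND1, with limma adjusted p-values of at least 0.996. In MOLM14, 0 of the 9 cyclins were called, as were 0% of the 15288 genes tested with limma, while 5.88% of all genes and 0 cyclins had an unadjusted p under 0.05. There the changes ran from -0.073 for CCND1 to 0.027 for CCNB1, with adjusted p-values of at least 0.981. The AZ2 and DMSO ranges overlapped for all 9 genes in each line, while the groups lay apart for 1.18% of genes higher and 1.48% lower in OCI-AML2, and for 1.82% higher and 2.61% lower in MOLM14. A p above the threshold does not show equality, and the 95% intervals give the sizes that these data leave possible. For CCND3 in OCI-AML2 the interval was -0.11 to 0.10, and for CCNA2 in MOLM14 it was -0.10 to 0.13. The widest was that of CCND1 in OCI-AML2, at -0.30 to 0.42.

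ARM165 against AZ2 compares both compounds directly, at doses not stated. In OCI-AML2, 7 of the 8 cyclins were lower with ARM165 than with AZ2, where 31.4% of all genes were called lower and 34.5% higher, 65.8% in all. The groups lay apart for those 7, as for 28.6% of genes lower and 32.8% higher. CCNE2 had the largest difference there (-1.86 ± 0.15, adjusted p = 2.51e-08 in limma) and CCNB2 the smallest of the 7 (-1.08 ± 0.064, adjusted p = 5.69e-10). For CCND1 the difference was -0.22 ± 0.17 (95% interval -0.58 to 0.14, limma adjusted p = 0.278), and after quantile normalization it was -0.39 ± 0.17 with an adjusted p of 0.0489. In MOLM14, 8 cyclins were lower and 1 higher with ARM165 than with AZ2, where 70.1% of genes were called (34% lower, 36.1% higher). All 9 had groups apart, as did 30.3% of genes lower and 33.3% higher. The differences ran from -2.26 ± 0.11 for CCNE1 (adjusted p = 4.03e-11 in limma) to 0.45 ± 0.094 for CCND2 (adjusted p = 0.000497). The 3 comparisons of a line share libraries: ARM165 serves here and against DMSO, and the same DMSO libraries serve for both compounds.

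A joint limma fit of the 24 libraries compared the ARM165 change of OCI-AML2 with that of MOLM14, over the 14287 genes kept in both. Of the 8 cyclins in that fit, 3 had a less negative change in OCI-AML2 than in MOLM14 and 1 a more negative one, where 24.3% and 18.1% of genes were called in those directions and 42.4% in all. With equal totals the calls over all genes were 2382 and 3821 in those directions in place of 3471 and 2582. CCND3 had a more negative change in OCI-AML2 (-1.32) than in MOLM14 (-0.40), a difference of -0.92 ± 0.070 (limma adjusted p = 2.50e-10). CCND1 went the other way, with -0.16 in OCI-AML2 and -0.99 in MOLM14 (difference 0.83 ± 0.22, limma adjusted p = 0.00347). CCNE1 differed by 0.50 ± 0.13 (limma adjusted p = 0.00321), with the deeper fall in MOLM14. CCNB1 differed by 0.26 ± 0.082 (limma adjusted p = 0.0143), and with equal totals by 0.098 ± 0.062 (adjusted p = 0.215), which no longer passed. CCNB2 differed the other way by -0.20 ± 0.083, with the deeper fall in OCI-AML2, and did not pass (limma adjusted p = 0.0573), although it did with equal totals (-0.36 ± 0.069, adjusted p = 0.000184), after quantile normalization (-0.20 ± 0.068, adjusted p = 0.0191) and with the replicate numbers as a block (adjusted p = 0.0476). CCNA2 had a difference of 0.011 with a 95% interval of -0.18 to 0.20, CCNF one of 0.12 with an interval of -0.081 to 0.33, and CCNE2 one of -0.19 with an interval of -0.56 to 0.18. CCND2 had no such test because it failed the filter in OCI-AML2. For AZ2, the line difference was called for 0 of the 8 cyclins and for 0.028% of genes, with adjusted p-values of at least 0.962 for the cyclins in limma. An unadjusted p under 0.05 was found for 0 cyclins and 5.22% of genes.

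**Figure D3:**
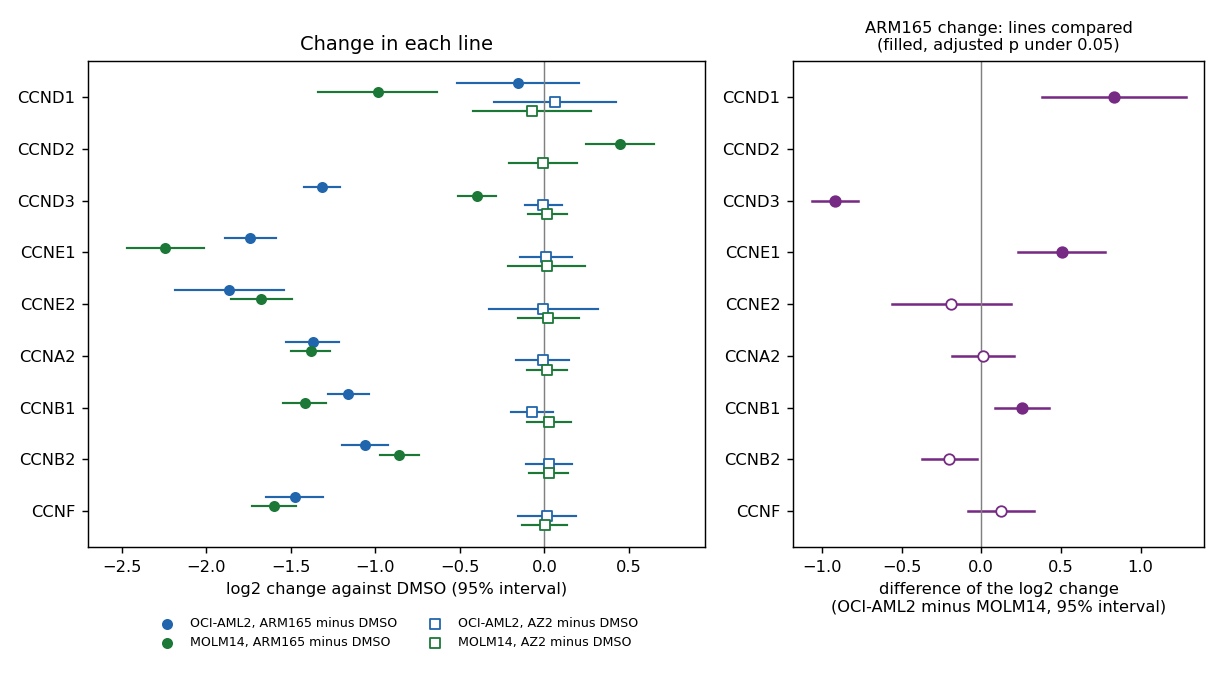
Log2 change of each cyclin against DMSO with its 95% interval (left; filled circles ARM165, open squares AZ2, blue OCI-AML2, green MOLM14) and the difference of the ARM165 change between the lines, OCI-AML2 minus MOLM14 (right; filled where the adjusted p is under 0.05). All AZ2 intervals include 0, and on the right CCND3 lies at -0.92 and CCND1 at 0.83.

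Ratios of one cyclin to another within a library do not depend on a scaling that multiplies each library by a single factor. Whether the deposited values were scaled in that way is not stated. These pairs were chosen after the values had been seen, and a ratio's level carries both transcripts' lengths, so only its difference between treatments is read. An exact two-sided permutation test of 4 against 4 libraries cannot give less than p = 0.0286. Adjusted over the 30 ratio comparisons made, that smallest p became 0.0952 in the exact test, so none passed. The log2 ratio of CCND1 to CCND3 was -4.76, -4.94, -4.60 and -4.61 with ARM165 and -5.67, -6.13, -5.94 and -5.81 with DMSO in OCI-AML2, a difference of 1.16 ± 0.13 (SE) with no overlap. In MOLM14 the same ratio was -5.59, -5.12, -5.34 and -5.32 with ARM165 and -4.72, -4.57, -4.90 and -4.77 with DMSO, a difference of -0.60 ± 0.12 with no overlap, of the opposite sign to that in OCI-AML2. CCND2 to CCND3 in MOLM14 stood at -2.98, -2.81, -2.84 and -3.06 with ARM165 and -3.77, -3.68, -3.75 and -3.87 with DMSO (difference 0.85 ± 0.071, no overlap), with the doubt about CCND2 reads given above. CCNB1 to CCNB2 stood at -0.021, 0.0047, 0.045 and 0.042 with ARM165 and 0.20, 0.073, 0.080 and 0.12 with DMSO in OCI-AML2 (difference -0.10 ± 0.034), and at -0.47, -0.33, -0.18 and -0.35 and 0.29, 0.27, 0.17 and 0.16 in the same groups of MOLM14 (difference -0.56 ± 0.070). Neither pair of groups overlapped. In OCI-AML2 the AZ2 libraries stood about as low on average as the ARM165 ones, at -0.027, -0.013, 0.12 and -0.0027, which differed from DMSO by -0.10 ± 0.046 with overlapping groups. In MOLM14 the difference with AZ2 was 0.00056 ± 0.060. CCNE1 to CCNE2 differed between ARM165 and DMSO by -0.57 ± 0.10 in MOLM14 with no overlap, and by 0.13 ± 0.19 in OCI-AML2, where the groups overlapped. Against CCND3, CCNE1 differed by -0.42 ± 0.086 in OCI-AML2 and by -1.85 ± 0.095 in MOLM14, both with no overlap. CCNA2 to CCND3 differed by -0.98 ± 0.063 in MOLM14 with no overlap and by -0.055 ± 0.094 in OCI-AML2 with overlap. CCNB1 and CCNF, set against CCNA2, overlapped between ARM165 and DMSO in both lines. With AZ2 every ratio overlapped DMSO.

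**Figure D4:**
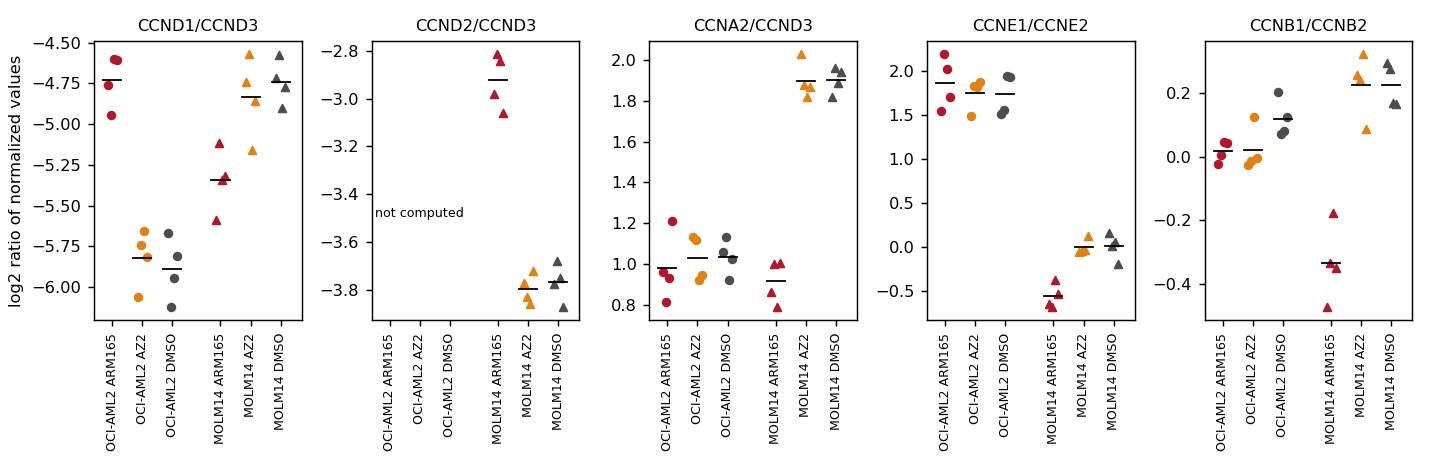
Log2 ratio of the normalized reads of 5 cyclin pairs (vertical axes, each with its own range that does not start at 0) in every library, with OCI-AML2 as circles and MOLM14 as triangles, in the order ARM165, AZ2 and DMSO; dashes are means of 4. In the CCND1/CCND3 panel the ARM165 points lie above DMSO in OCI-AML2 and below DMSO in MOLM14.

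The proteins that work with cyclins were followed as lists, which were chosen with earlier results of these data known, and some genes stand in more than 1 list. Of 13 genes for partner kinases and the enzymes that switch them on or off, ARM165 lowered 9 and raised 4 against DMSO in each line, with a median change of -1.29 in OCI-AML2 and -1.04 in MOLM14. The shares over all genes were 31.6% lower and 34.2% higher in OCI-AML2, and 34% and 35.5% in MOLM14. CDK1, the partner of the B-type cyclins, was at 2812 ± 326 with ARM165 and 8721 ± 745 with DMSO in OCI-AML2 (SD, n = 4 each; change -1.64 ± 0.084). In MOLM14 it was at 4301 ± 363 with ARM165 and 13605 ± 426 with DMSO (change -1.66 ± 0.058). CDK2, the partner of E-type cyclins and cyclin A2, changed by -1.64 ± 0.084 in OCI-AML2 and by -1.33 ± 0.12 in MOLM14. CDC25A, a phosphatase that activates CDK2, changed by -1.70 ± 0.069 and -1.43 ± 0.090 in the same lines, and PKMYT1, which inhibits CDK1 by phosphorylation, by -1.75 ± 0.080 and -1.16 ± 0.079. CKS2, a small subunit of CDK complexes, changed by -1.30 ± 0.070 in OCI-AML2 and by -1.54 ± 0.053 in MOLM14. The adjusted p-values of these 5 genes in limma were all at most 4.81e-08.

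The CDK inhibitors included genes that rose and genes that fell. Of the 8 genes, 7 were tested in OCI-AML2, where 3 rose and 2 fell, and 6 in MOLM14, where 4 rose and 2 fell, with medians of 0.15 and 0.44. Over all genes, 34.2% were higher and 31.6% lower in OCI-AML2, and 35.5% and 34% in MOLM14, and with so few inhibitors nothing is read from their shares. CDKN1A, which encodes p21, was at 17106 ± 259 with ARM165 and 373 ± 22.6 with DMSO in OCI-AML2 (SD, n = 4 each; change 5.52 ± 0.092, adjusted p = 8.36e-16 in limma). In MOLM14, CDKN1A rose too, to 45344 ± 2398 with ARM165 against 6985 ± 272 with DMSO (change 2.70 ± 0.051, adjusted p = 2.99e-15 in limma). Its rise differed between the lines by 2.82 ± 0.11 (adjusted p = 2.05e-15 in limma), OCI-AML2 minus MOLM14. CDKN2B, the inhibitor p15 of CDK4 and CDK6, was at 699 ± 52.8 with ARM165 and 26.3 ± 9.32 with DMSO in OCI-AML2 (change 4.74 ± 0.31, limma adjusted p = 1.83e-09), and was listed at 0 in all 12 MOLM14 libraries. CDKN1C, which encodes p57, was at 85.3 ± 18.9 with ARM165 and 14.6 ± 10.9 with DMSO in MOLM14 (change 2.84 ± 0.59, limma adjusted p = 0.000505), and was not tested in OCI-AML2. CDKN3, a phosphatase that acts on CDK2 and CDK1, fell in both lines, by -1.41 ± 0.088 and -1.18 ± 0.085 (limma adjusted p = 1.12e-09 and 5.58e-09).

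Of 24 parts of the ubiquitin ligases that act on cyclins, 10 rose and 10 fell with ARM165 in OCI-AML2, and 5 rose and 13 fell in MOLM14 (8 and 11 with equal totals), with medians of -0.080 and -0.23. Among all genes, 34.2% were higher and 31.6% lower in OCI-AML2, and 35.5% and 34% in MOLM14. Nothing is read from the counts of these 24 genes. SKP2, the F-box protein that recognises p27, changed by -1.94 ± 0.093 in OCI-AML2 and by -1.84 ± 0.056 in MOLM14. UBE2C, which feeds ubiquitin to the anaphase-promoting complex that destroys cyclins A2 and B1, changed by -1.49 ± 0.069 and -1.63 ± 0.073, and FBXO5, an inhibitor of that complex, by -1.47 ± 0.067 and -1.44 ± 0.046. Of 9 genes whose proteins cyclin F marks for destruction, 8 fell in OCI-AML2 and 7 in MOLM14 and none rose, though with equal totals 2 rose in MOLM14. Among them, RRM2, a subunit of ribonucleotide reductase, changed by -2.02 ± 0.075 in OCI-AML2 and by -1.96 ± 0.074 in MOLM14, and NUSAP1, a spindle protein, by -1.44 ± 0.058 and -1.18 ± 0.049. The adjusted p-values of these 5 genes in limma were all at most 5.68e-11.

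Of 27 transcription factors that act on cyclin genes, 8 rose and 14 fell in OCI-AML2, and 9 rose and 13 fell in MOLM14 (14 and 12 with equal totals), with medians of -0.26 in OCI-AML2 and -0.082 in MOLM14, where it was 0.11 with equal totals. Beside them, 34.2% of all genes were higher and 31.6% lower in OCI-AML2, and 35.5% and 34% in MOLM14, and nothing is read from these counts. E2F1 was at 1206 ± 100.1 with ARM165 and 4725 ± 265 with DMSO in OCI-AML2 (SD, n = 4 each; change -1.97 ± 0.071, limma adjusted p = 2.29e-12). Its change in MOLM14 was -1.51 ± 0.063 (limma adjusted p = 1.19e-11), and those of E2F2 were -1.80 ± 0.12 in OCI-AML2 and -1.08 ± 0.10 in MOLM14. E2F8, a repressor of the family, changed by -1.59 ± 0.12 and -1.74 ± 0.063 in the same lines. MYC, a driver of growth and of G1 entry, was at 6647 ± 296 with ARM165 and 25285 ± 1176 with DMSO in OCI-AML2 (change -1.93 ± 0.056, limma adjusted p = 2.12e-13) and changed by -1.70 ± 0.070 in MOLM14. FOXO3, which AKT keeps out of the nucleus, was at 8845 ± 384 with ARM165 and 2939.7 ± 188 with DMSO in OCI-AML2 (change 1.59 ± 0.059, limma adjusted p = 3.21e-12). Its change in MOLM14 was 1.66 ± 0.046 (limma adjusted p = 2.10e-13).

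The wider sets of cell cycle genes moved the way most cyclins did. All 42 S phase genes fell with ARM165 in each line (41 in OCI-AML2 and 40 in MOLM14 with equal totals), with medians of -1.68 in OCI-AML2 and -1.32 in MOLM14. For comparison, 31.6% of all genes were lower and 34.2% higher in OCI-AML2, and 34% and 35.5% in MOLM14. UHRF1, which maintains DNA methylation, changed by -2.37 ± 0.045 in OCI-AML2 and by -2.13 ± 0.052 in MOLM14. DSCC1, part of a clamp loader for sister chromatid cohesion, changed by -2.19 ± 0.10 and -1.75 ± 0.088, and CDCA7 by -2.34 ± 0.057 and -1.98 ± 0.049. UNG, which removes uracil from DNA, changed by -1.95 ± 0.055 and -2.16 ± 0.060, and GINS2, a subunit of the replicative helicase, by -2.10 ± 0.085 in OCI-AML2 and -1.996 ± 0.10 in MOLM14. Of the G2 and M phase genes, 50 of 52 tested fell and 1 rose in OCI-AML2, and 50 of 53 fell and 1 rose in MOLM14 (47 and 3 with equal totals), with medians of -1.28 and -1.12. AURKB, a mitotic kinase, changed by -1.92 ± 0.070 in OCI-AML2 and by -1.57 ± 0.055 in MOLM14, and CDCA3 by -1.76 ± 0.070 and -1.42 ± 0.10. The adjusted p-values of these 7 genes in limma were all at most 3.53e-09. The gene that rose in both lines was GAS2L3, a cytoskeletal linker, at 1556 ± 194 with ARM165 and 409 ± 116 with DMSO in OCI-AML2 (SD, n = 4 each; change 1.96 ± 0.15, limma adjusted p = 1.58e-08). In MOLM14 its change was 1.76 ± 0.084 (limma adjusted p = 4.88e-11).

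Other members of the cyclin family, which act in transcription or have less settled roles, did not follow the 9. Of 19 such genes, 18 were tested in OCI-AML2, where 9 rose and 2 fell with ARM165, and 17 in MOLM14, where 11 rose and 1 fell, with medians of 0.37 and 0.28. All genes tested had medians of 0.034 and 0.031 in the same lines. Of them, 34.2% were higher and 31.6% lower in OCI-AML2, and 35.5% and 34% in MOLM14. CCNL1, a partner of CDK11 in RNA splicing, was at 12519 ± 1008 with ARM165 and 5313 ± 333 with DMSO in OCI-AML2 (SD, n = 4 each; change 1.24 ± 0.066, limma adjusted p = 1.71e-10), and it changed by 0.83 ± 0.043 in MOLM14. CCNT2, a partner of CDK9 in transcription elongation, changed by 0.78 ± 0.11 in OCI-AML2 and by 0.99 ± 0.12 in MOLM14 (limma adjusted p = 1.16e-05 and 3.57e-06). CCNO was at 14.8 to 29.9 with ARM165, 0 to 3.01 with AZ2 and 0 to 9.38 with DMSO in OCI-AML2. It is counted among the genes that rose there (3.27 ± 0.92, limma adjusted p = 0.00523). It passed the filter only through its ARM165 libraries, however, so nothing is read from that test. Its change of 0.71 ± 0.45 in MOLM14 did not pass (limma adjusted p = 0.174). CCNI2 was at 13.4 to 124 with ARM165 and 131 to 149 with DMSO in OCI-AML2 (-1.36 ± 0.55, limma adjusted p = 0.0421). In MOLM14, CCNI2 was at 9.74 to 148 with ARM165, 4.13 to 9.66 with AZ2 and 0.783 to 13.4 with DMSO. It is counted among the genes that rose in MOLM14, although the ARM165 and DMSO ranges overlapped (2.66 ± 0.82, limma adjusted p = 0.00948). Without its ARM165 libraries CCNI2 would not have passed the filter there, so nothing is read from that test. With AZ2, 0 genes of the 8 lists were called in either line.

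**Figure D5:**
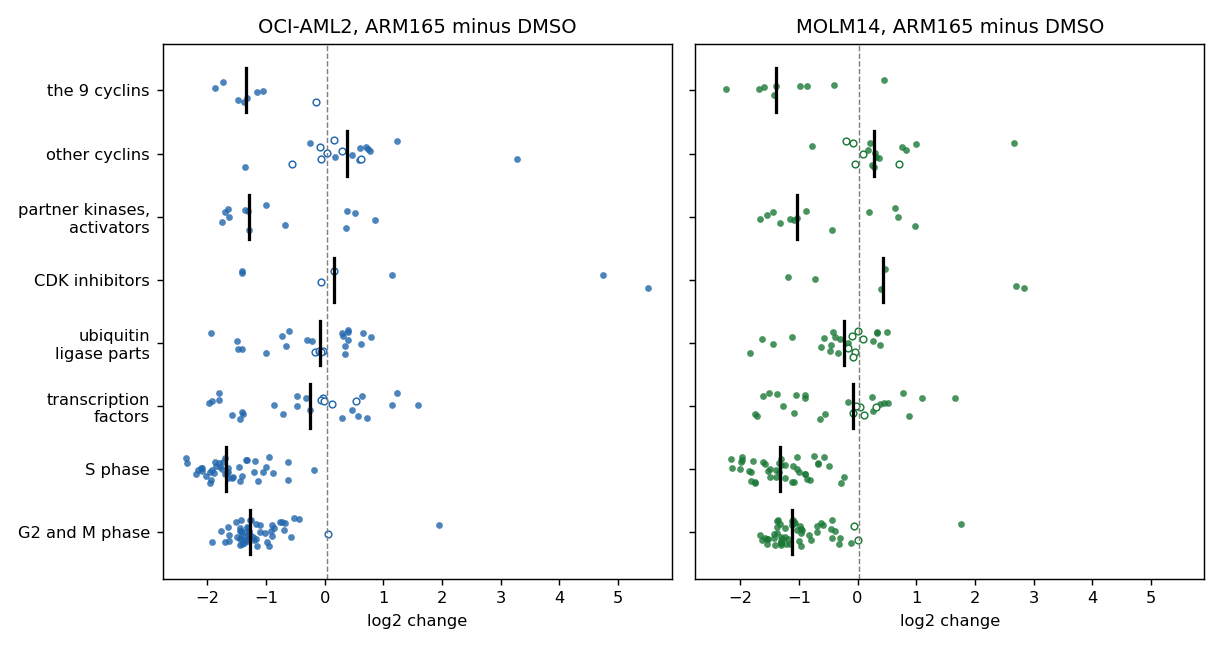
Log2 change with ARM165 against DMSO (horizontal axis) of every tested gene of each list, in OCI-AML2 (left) and MOLM14 (right); filled points have an adjusted p under 0.05, black bars are list medians, and the dashed line is the median of all genes tested. The cyclins have a median of -1.34 over the 8 tested in OCI-AML2 and of -1.38 over the 9 in MOLM14, beside -1.68 and -1.32 for the S phase genes and -1.28 and -1.12 for the G2 and M phase genes in the same lines, while the other cyclins lie mostly to the right of 0.

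The genes whose pattern over the libraries was most like that of each cyclin were ranked by the lower of its Pearson correlations in each line, over 12 libraries of log2 values and 14287 genes. The 12 libraries form 3 treatment groups, so these correlations describe mainly the step between ARM165 and the others, and they carry no p. CCNA2 was closest to KIF11 (r of 0.999 in OCI-AML2 and 0.998 in MOLM14), CDK1 and RFC3, a motor protein of the spindle, its own kinase partner and a clamp-loader subunit. CCNE1 was closest to PTMA (0.998 and 0.997), STMN1 and UNG, and CCNE2 to KIF14 (0.993 and 0.995), DLGAP5 and DDX18. For CCNB1 they were SLC25A5 (0.997 and 0.998), PARP1 and HSP90AB1, and for CCNB2 MGST2 (0.994 and 0.994), MDH1 and BCL2. CCNF was closest to IDH2 (0.996 and 0.997), MYBL2, which encodes B-MYB, and E2F1. CCND3 was closest to PDLIM1 (0.994 and 0.990), TSPO and RAC2, and CCND1, with lower values, to DNAJA3 (0.880 and 0.845), RAB4A and LRFN3.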

How the data were processed

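Poly(A) RNA of both lines was sequenced from a strand-keeping library, per the labels' protocols, and quantified with kallisto, per the submitters' processing notes. The deposited values are a signal: normalized estimated reads per gene symbol in 1 table per line. The kallisto version, the build, the annotation, the summing to genes and the scaling are not given in the sources used here. Library depth, 35.4 to 59.0 M reads, was estimated by dividing each library's total by its most common low value, taken as 1 read. It covers only reads assigned to a gene symbol. Between 15.1 and 15.8% of the values were within 0.01 of whole reads, so no count test was run. Per line, symbols reaching 10 in 4 or more libraries entered the test, transformed as log2(value + 1) and fitted with limma 3.58.1 in R 4.3.3, with 1 mean per group, a variance trend and Benjamini-Hochberg adjustment over all of them. Line differences came from 1 fit of the 24 libraries. The script was tested on simulated data. No sample was left out. The cyclins, the lists and the ratios were chosen with earlier results of these data known. From each list, up to 3 called genes per line with the largest ARM165 change were named, and up to 2 of the highest level where none was called. LTO1, AC008012.1, INTS8, NDUFAF6 and EXOSC9 were named outside that rule because they overlap a cyclin gene. Ratios were tested with scipy 1.17.1. Overlaps between genes came from GENCODE release 29, and start regions from RefSeq GRCh38.p14. Alternatives were quantile normalization, equal library totals, pseudocounts of 0.5 and 5, no filter, a filter at 50, only the groups compared, no variance trend, a replicate block and each library left out.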

Additional observations from a re-analysis of the deposited data

Results flagged for a closer look

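Of the 54 groups of 4 libraries (9 cyclins in 6 groups), 6 held a library that stood apart from the other 3 by Dixon's criterion, of which chance gives about 1 in 20. CCND1 was at 52.1 in the first MOLM14 library with ARM165, where the others were at 65.4 to 67.0. CCND2 was at 376 in the third MOLM14 library with ARM165 (others 317 to 323), and at 229 in the fourth with DMSO (others 248 to 252). CCNA2 was at 5496 in the fourth OCI-AML2 library with ARM165 (others 4440.3 to 4536), at 5383 in the fourth MOLM14 library with ARM165 (others 4545 to 4660.0), and at 13508 in the first MOLM14 library with AZ2 (others 12232 to 12408). Without the library named, the ARM165 change of CCND1 in MOLM14 was -0.90 (limma adjusted p = 0.000251) and that of CCND2 was 0.39 with the third ARM165 library left out (limma adjusted p = 0.00238).

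The change with ARM165 against DMSO differed between the lines, OCI-AML2 minus MOLM14, for 4 of the 8 cyclins tested in the limma fit of all libraries. In that comparison 42.4% of the 14287 genes tested were called, so nothing is read from the count. The differences were 0.83 for CCND1 (adjusted p = 0.00347), -0.92 for CCND3 (adjusted p = 2.50e-10), 0.50 for CCNE1 (adjusted p = 0.00321) and 0.26 for CCNB1 (adjusted p = 0.0143).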

How the results depend on the processing

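The 67 cyclin results were recomputed under 1599 alternatives. Of these, 1589 kept the side of the threshold, 1 lost the call and 9 gained one, and no called direction reversed; in 87 an uncalled value near 0 changed sign. The loss was CCNB1 between the lines with equal totals (0.098, adjusted p = 0.215 in limma). CCND1 in OCI-AML2, ARM165 against AZ2, gained a call after quantile normalization (-0.39, adjusted p = 0.0489). CCNB2 between the lines gained one after quantile normalization (-0.20, adjusted p = 0.0191), with equal totals (-0.36, adjusted p = 0.000184) and with any of 5 libraries left out (-0.24 to -0.22): OCI-AML2 ARM165 replicate 1, OCI-AML2 DMSO replicates 1 and 4, and MOLM14 ARM165 replicates 2 and 3. The replicate numbers did not pair the samples (correlations of same-numbered libraries from -0.0373 to 0.0558). With the replicate block CCNB2 between the lines was -0.20 (adjusted p = 0.0476), and the block changed no other cyclin call. The counts of cyclins called were 4 to 5 between the lines and 7 to 8 for ARM165 against AZ2 in OCI-AML2, and did not move in the other comparisons. Over all genes, AZ2 calls against DMSO went from 17 to 7 without a variance trend, to 10 with the block and to 9 to 17 with a library left out in OCI-AML2 (9 to 11 without AZ2 replicate 1, 2 or 3 or DMSO replicate 1 or 4). In MOLM14 they were 0 to 3 in place of 0 (3 without AZ2 replicate 3, and 1 without ARM165 replicate 4, AZ2 replicate 1 or DMSO replicate 4, or with only the groups compared). For the difference between the lines they were 0 to 8 in place of 4, with 8 for only the groups compared, 1 without a trend, 2 with the block and 0 to 7 with a library left out. None of the 270 ratio alternatives moved by more than 1 SD. Leaving out 1 of 4 libraries cannot move a ratio difference that far, so nothing is read from those alternatives. Only the alternatives with 5 added to each value could have passed that limit. The listed values of CCND2 in OCI-AML2 were too low to be tested, with the doubt about its reads given above.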
